A study of Mus musculus with 20 samples.

Results

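The response of the mouse plantaris to 10 days of mechanical overload (MOV) was measured by RNA-seq in muscles that had received a control virus. The comparison took the 10 control-virus libraries of the 20 in the series, 5 from mice with MOV surgery (MOV control) and 5 from mice with sham surgery (sham control), and each library came from 1 muscle of 1 mouse. All mice were male C57BL/6J aged 5 months. In MOV surgery part of the gastrocnemius-soleus complex was cut away on both sides, which leaves the plantaris to carry more of the load, and in sham surgery no muscle was removed. During either operation the left plantaris was injected with lentivirus carrying a scrambled control insert, a CMV promoter and a TurboGFP reporter, so that the sham control muscles had also been injected and the promoter was not restricted to muscle fibres. The right plantaris of the same mice received a virus with a miR-1 mimic, and those 10 libraries (sham mimic and MOV mimic) entered only where named. MOV control and sham control muscles came from different mice and nothing paired them.

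The plantaris is a fast-contracting ankle extensor. Its fibres carry different isoforms of myosin heavy chain, the motor protein of the thick filament. Myh4 encodes the fastest isoform (IIb), Myh1 and Myh2 the intermediate isoforms IIx and IIa, Myh7 the slow isoform, and Myh3 and Myh8 the embryonic and perinatal isoforms that appear in regenerating fibres. Under overload a plantaris fibre is known to thicken, to strengthen the Z-discs and costameres that pass on force, and to shift from IIb towards IIx and IIa. Satellite cells, the muscle stem cells marked by Pax7, divide and fuse with the fibres, while fibroblasts, macrophages and vessels remodel around them. Since whole muscle was sequenced, fewer cells of a type and less RNA per cell cannot be told apart in any of the values that follow.

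The deposited values were raw counts for each Ensembl gene. Totals were between 16083171 and 18226819 in sham control and between 15301046 and 20228688 in MOV control. Values are given here as CPM (counts scaled to library size after TMM normalization), and changes as log2FC, the log2 fold change of MOV control over sham control with its standard error (SE) from edgeR. As a check of the tissue, genes of the fast sarcomere summed to 165285 to 252470.0 CPM in sham control and 131327 to 228392 CPM in MOV control, and genes of the slow sarcomere to 748 to 1960.2 CPM in sham control and 968 to 2598 CPM in MOV control. Expression in sham control 1, MOV control 4 and MOV control 5 lay apart from the rest in the first 2 principal components, which held 37.6% and 19.9% of the variance. Macrophage markers and genes of matrix proteins had their lowest summed levels in these 3 libraries.

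The libraries also differed in reads from the mitochondrial ribosomal RNAs (mt-Rnr1 and mt-Rnr2), and this difference nearly followed surgery. These reads made up 0.422, 0.450, 0.256, 0.257 and 0.642% of counts in sham control 1 to 5, and 0.00396, 0.00412, 0.00443, 0.00377 and 0.229% in MOV control 1 to 5. MOV control 5 was thus the only MOV control library at the level of the sham libraries, below the lowest of them. Among the mimic libraries the share was between 0.305 and 0.467% in sham mimic 1 to 4 and 0.00735% in sham mimic 5, and between 0.00340 and 0.00570% in MOV mimic 1 to 4 and 0.0542% in MOV mimic 5. In MOV control 1 to 4, surgery and this rRNA level cannot be told apart. For the genes given by library, and for some lists, a pair of further values is therefore given, the log2FC of MOV control 5 alone against the 5 sham control libraries (the MOV control 5 value, which rests on 1 library), and the log2FC of MOV control over sham control in a fit of 20 libraries with the log2 rRNA level as a term (the rRNA-adjusted value). That fit counted the control and mimic muscles of a mouse as independent libraries, although the 20 came from 10 mice, so its p-values take no account of what legs of a mouse share.

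The first question was how many genes differed 10 days after surgery. Of the 14974 genes tested, edgeR called 1 at an adjusted p under 0.05 (0.00668%), with 0 higher (0.0%) and 1 lower (0.00668%) in MOV control. The gene was Nos1, which fell. At an unadjusted edgeR p under 0.05 there were 2726 genes (18.2%), 1356 higher (9.06%) and 1370 lower (9.15%). The call count hung on the threshold, because the smallest adjusted edgeR p after that of Nos1 was 0.0551 and 129 genes had one of at least 0.055 and under 0.056. At an adjusted edgeR p under 0.10 there were 258 genes higher (1.72%) and 320 lower (2.14%), or 3.86% in all. DESeq2, the tool the study used, called 392 genes higher (2.62%) and 521 lower (3.48%), which is 6.1% of genes. Limma voom with sample quality weights called 419 higher (2.8%) and 527 lower (3.52%), which is 6.32%. DESeq2 and voom shared 653 calls (4.36%), 278 higher (1.86%) and 375 lower (2.5%). In 373 genes all MOV control libraries were above all sham control libraries in CPM (2.49%) and in 358 they were all below (2.39%), together 4.88%. The median log2FC over all genes tested was 0.04, and 54.2% of genes had a positive value. Since edgeR called a single gene, all other differences are given as higher or lower values with the tools that called them.

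Of the 278 genes that DESeq2 and voom both called higher, 130 had a log2FC over 1, and of the 375 called lower, 142 had one under -1. Most of these genes kept their direction, at smaller values, when the rRNA level was allowed for. MOV control 5 lay above the sham control mean for 264 of the 278 genes and above every sham control library for 202. It lay below the sham control mean for 375 of the 375 genes and below every sham control library for 250. The calls had been made with MOV control 5 among the 10 libraries, so these counts are no independent repeat. No share over all genes tested is given beside them, so how far they exceed a background is not known. Over all genes tested the median MOV control 5 value was -0.02. The median log2FC of the genes called higher was 0.98, with a MOV control 5 value of 0.66 and an rRNA-adjusted value of 0.55. For the genes called lower it was -0.91, against -0.63 and -0.46. With MOV control 5 as the only MOV library, where the spread came from the sham libraries alone and MOV control 5 was assumed to vary like them, DESeq2 called 91 genes higher and 124 lower, and with the rRNA level as a term on 20 libraries it called 0 higher and 7 lower. In the lists of genes used below, the fit with the rRNA term on 20 libraries left no DESeq2 call except 1 gene lower among neutrophil markers and 1 among chemokines and cytokines. edgeR called none in either fit, with 1564 and 1011 genes at an unadjusted p under 0.05.

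**Figure D1:**
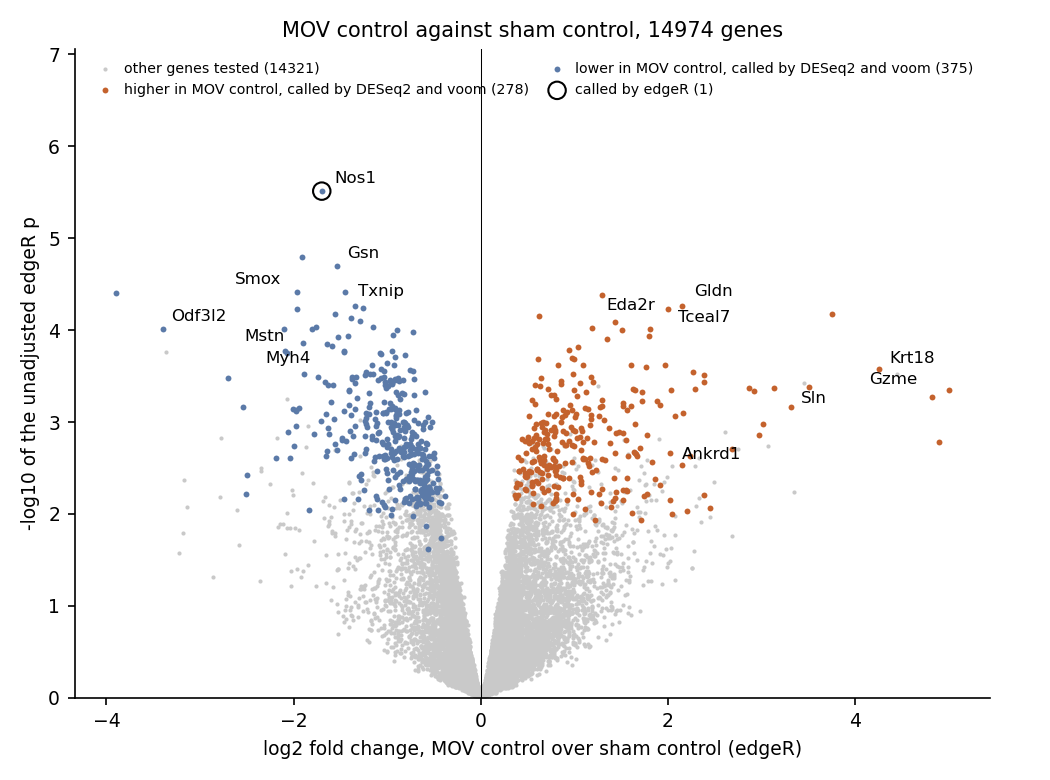
Each point is 1 of the 14974 genes tested, placed by its log2 fold change of MOV control over sham control and by the negative log10 of its unadjusted edgeR p. Genes called by both DESeq2 and voom are coloured (278 higher, 375 lower), and Nos1, the gene called by edgeR, is circled.

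Nos1 encodes neuronal nitric oxide synthase, an enzyme held at the sarcolemma by the dystrophin complex. It lies on chromosome 5, 117866839 to 117958840 (RefSeq, GRCm38.p6). Its values were 92.7, 46.1, 39.0, 48.1 and 51.7 CPM in sham control 1 to 5 and 17.1, 19.1, 19.03, 14.9 and 15.2 CPM in MOV control 1 to 5. All MOV control libraries were below all sham control libraries, and sham control 1 was the highest. Nos1 fell 3.25-fold, by a log2FC of -1.70 ± 0.22 (SE, n = 5 libraries per group). The adjusted p was 0.0461 by edgeR, 1.19e-09 by DESeq2 and 0.00149 by voom. The MOV control 5 value was -1.84 and the rRNA-adjusted value -1.21. Its edgeR call was lost in 11 of 21 other edgeR settings, among them the fits with MOV control 5 alone or the rRNA level as a term and those without sham control 2, 4 or 5 or without MOV control 1, 2 or 4, while its log2FC stayed between -1.80 and -1.44 with any 1 library left out.

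Sham control 1 held the highest or lowest sham value for many of the genes that follow, and MOV control 4 or 5 the most extreme MOV value. Without these 3 libraries the log2FC was -1.36 for Nos1, -1.26 for Myh4, -1.93 for Mstn, -1.17 for Txnip, -1.80 for Smox and -1.27 for Gsn. Among genes with higher values it was 1.66 for Tceal7, 0.85 for Eda2r, 0.75 for Chrna1 and 1.02 for Ncam1. Each kept its direction. This setting left sham control 2 to 5, at 0.256 to 0.642% of counts from mitochondrial rRNA, and MOV control 1 to 3, at 0.00396 to 0.00443%. Surgery and the rRNA level then coincide fully, so values without the 3 libraries, here and below, cannot separate them. Over all genes DESeq2 called 365 higher and 678 lower in this setting. With 1 library left out it called 166 to 646 higher and 258 to 891 lower. List counts below are to be read against these.

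**Figure D2:**
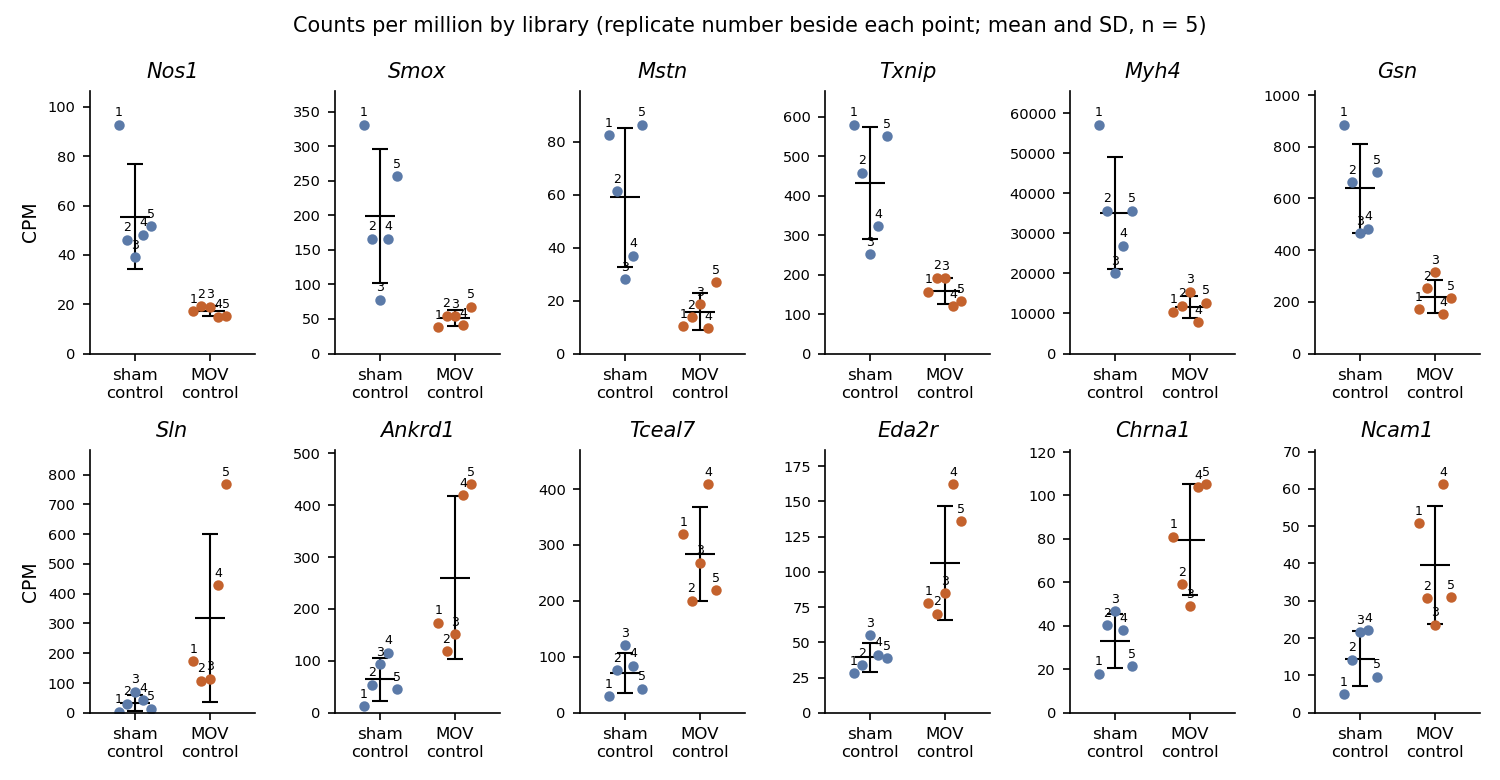
Scaled counts (CPM, linear axes from 0) of 12 genes in each of the 10 libraries, with the replicate number beside each point and the mean and SD of each group (n = 5). The groups are apart for each gene shown, and MOV control 4 or MOV control 5 is often the most extreme MOV library.

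Among the myosin heavy chains, Myh4 lies on chromosome 11, 67237812 to 67260447 and had 57116, 35701, 20130.0, 26898 and 35689.5 CPM in sham control 1 to 5 and 10469, 11975, 15438, 7910.1 and 12695 CPM in MOV control 1 to 5. All MOV control libraries were below all sham control libraries, with sham control 1 highest. Its log2FC was -1.59 ± 0.30 and its adjusted p 0.0554 by edgeR, 2.46e-06 by DESeq2 and 0.0163 by voom, with a MOV control 5 value of -1.44 and an rRNA-adjusted value of -1.16. Myh1 had 14050.1, 11169, 18942, 14637 and 8549 CPM in sham control 1 to 5 and 16318, 16687, 15366, 31162 and 41266 CPM in MOV control 1 to 5. MOV control 4 and 5 were far above the rest, whereas MOV control 1 to 3 lay within the sham range. Neither tool called Myh1 (log2FC 0.84 ± 0.33, adjusted p 0.198 by edgeR and 0.0710 by DESeq2, MOV control 5 value 1.64, rRNA-adjusted value 0.85), and without sham control 1, MOV control 4 and MOV control 5 its log2FC was 0.25.

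Isoforms can be compared with each other only per length, so reads of 6 isoforms were divided by the length of their exons and expressed as shares of their sum. The share of Myh4 was 74.5, 70.5, 45.3, 58.0 and 76.4% in sham control 1 to 5 and 32.8, 35.6, 43.3, 17.4 and 22.7% in MOV control 1 to 5. The groups did not overlap, although sham control 3 and MOV control 3 were close. The share of Myh1 was 17.4, 21.0, 40.5, 30.0 and 17.4% in sham control 1 to 5 and 48.6, 47.2, 41.0, 65.0 and 70.2% in MOV control 1 to 5, again without overlap, and sham control 3 and MOV control 3 were the closest libraries. The mean share of Myh4 went from 65.0% ± 13.1 in sham control to 30.4% ± 10.4 in MOV control, and that of Myh1 from 25.3% ± 9.97 in sham control to 54.4% ± 12.5 in MOV control (SD, n = 5). Each had a two-sided p of 0.00794 in the exact permutation test over 252 splits, the smallest this design allows, or 0.0238 adjusted over 6 isoforms. Without the 3 libraries that lay apart the mean share of Myh4 went from 62.6 to 37.3% and that of Myh1 from 27.2 to 45.6% (exact permutation p 0.0571 for each). Myh2 made up 7.99, 8.09, 12.8, 11.04 and 6.15% in sham control 1 to 5 and 14.9, 15.2, 13.9, 15.6 and 6.81% in MOV control 1 to 5. Its groups overlapped, since MOV control 5 was at the sham level (exact permutation p 0.0873, adjusted 0.0873).

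The slow and developmental isoforms were minor, and MOV control 5 had few of them. Myh7, a marker of slow fibres and of any soleus left on the muscle, made up 0.0197, 0.232, 0.285, 0.0769 and 0.0213% in sham control 1 to 5 and 0.520, 0.501, 0.346, 0.232 and 0.0215% in MOV control 1 to 5. The MOV control libraries 1 to 3 were the highest and MOV control 5 lay at the foot of the sham range (exact permutation p 0.0873, adjusted 0.0873). The embryonic isoform Myh3 made up 0.0143, 0.111, 0.715, 0.589 and 0.0307% in sham control 1 to 5 and 2.34, 1.04, 1.19, 1.36 and 0.175% in MOV control 1 to 5. MOV control 1 to 4 were above every sham library and MOV control 5 was not (exact permutation p 0.0317, adjusted 0.0635). For the perinatal isoform Myh8 the exact permutation p was 0.0556, adjusted 0.0833.

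**Figure D3:**
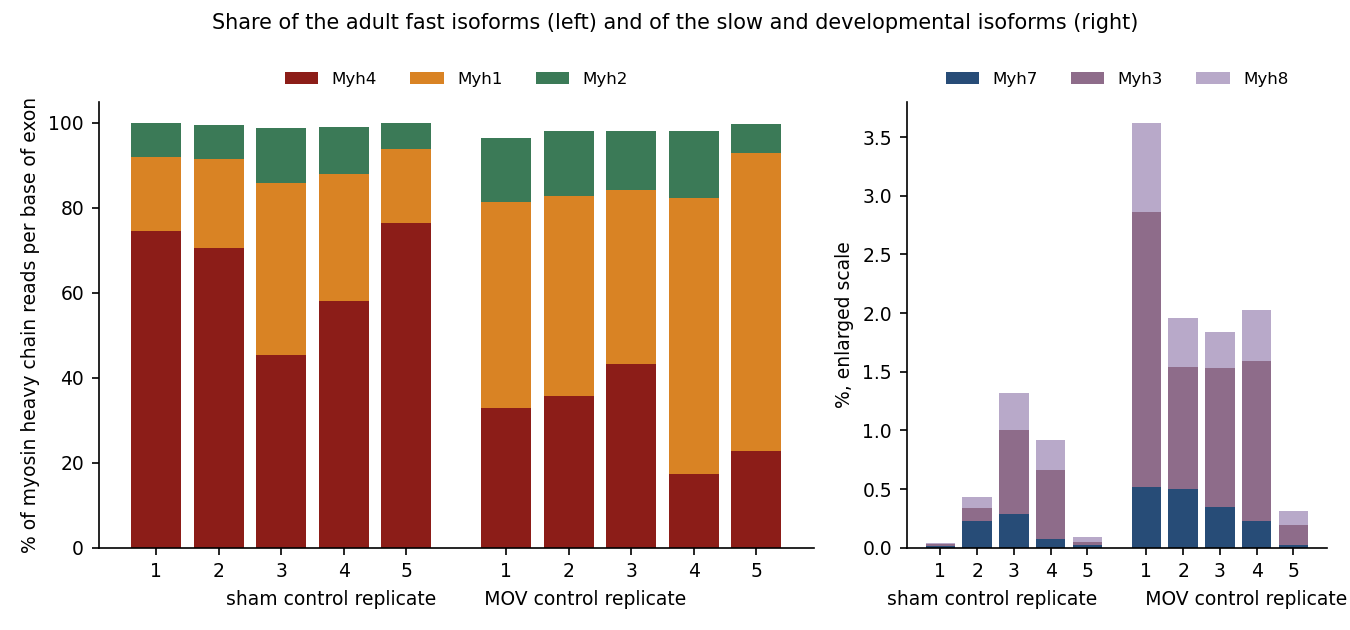
Stacked bars give each isoform's share (%) of myosin heavy chain reads per base of exon in each library, with Myh4, Myh1 and Myh2 on the left and Myh7, Myh3 and Myh8 on the right on an enlarged scale. Myh4 took 45.3% or more in each sham control library and 43.3% or less in each MOV control library.

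The sequence before the start of Nos1, the gene called by edgeR, is shown with those of Myh4, Ankrd1 and Chrna1, which stand for the fast fibre, load and junction programmes. Ankrd1 and Chrna1 are described further on. Each sequence is the 250 bases before the RefSeq start of the gene (GRCm38.p6), written 5′ to 3′ on the strand of the gene. Whether a sequence is the promoter used in plantaris was not tested, for Nos1 as for the others. Capitals mark the E-box CAGCTG, which the MyoD family binds, and the M-CAT motif CATTCC, which TEAD factors bind, each searched on both strands (GGAATG is M-CAT read on the other strand).
Nos1, chr5:117866589-117866838, plus strand: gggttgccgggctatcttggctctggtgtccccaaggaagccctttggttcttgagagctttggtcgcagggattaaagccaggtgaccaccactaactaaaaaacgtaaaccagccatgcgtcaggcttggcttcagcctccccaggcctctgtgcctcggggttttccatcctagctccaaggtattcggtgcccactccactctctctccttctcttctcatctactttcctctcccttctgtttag
Myh4, chr11:67237562-67237811, plus strand: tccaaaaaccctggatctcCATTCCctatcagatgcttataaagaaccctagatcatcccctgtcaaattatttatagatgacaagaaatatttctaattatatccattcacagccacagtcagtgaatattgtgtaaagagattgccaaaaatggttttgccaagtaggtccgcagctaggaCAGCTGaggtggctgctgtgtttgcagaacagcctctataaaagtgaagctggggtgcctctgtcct
Ankrd1, chr19:36119845-36120094, minus strand: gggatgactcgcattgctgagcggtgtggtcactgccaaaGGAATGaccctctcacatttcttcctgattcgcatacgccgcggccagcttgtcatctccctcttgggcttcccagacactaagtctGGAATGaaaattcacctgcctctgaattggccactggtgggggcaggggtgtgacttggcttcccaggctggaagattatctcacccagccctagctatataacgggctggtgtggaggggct
Chrna1, chr2:73580339-73580588, minus strand: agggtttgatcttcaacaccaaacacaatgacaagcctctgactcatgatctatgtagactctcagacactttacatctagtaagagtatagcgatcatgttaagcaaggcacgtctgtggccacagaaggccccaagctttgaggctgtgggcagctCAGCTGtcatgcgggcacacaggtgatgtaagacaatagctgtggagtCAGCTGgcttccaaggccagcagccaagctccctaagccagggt

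Myh4 held 1 match to each motif, Ankrd1 held 2 M-CAT matches and Chrna1 held 2 E-box matches. In Nos1, and in Mstn (promoter not shown), neither motif was found, and Tceal7 (not shown) held 1 M-CAT match. Such matches are common. The E-box was in 12.2% of these upstream sequences over 10628 genes tested. It was in 16.0% of 194 genes called higher by DESeq2 and voom and in 13.8% of 268 called lower. The M-CAT motif was in 10.6%, 14.4% and 11.2% of the same sets. A match describes the sequence and not binding.

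Other fast fibre genes followed Myh4 in part. Of the 17 fast sarcomere genes tested, DESeq2 called 3 lower and 0 higher, against 3.48% of all genes called lower, and the list median was -0.12, near the 0.04 of all genes. This median was 0.27 in MOV control 5 alone, 0.04 adjusted for rRNA and -0.45 without the 3 libraries that lay apart, and DESeq2 called 0 to 1 higher and 2 to 4 lower with 1 library left out, and 0 higher and 6 lower without the 3 libraries. The 3 were Myh4, Mylk2 and Mybpc2. Mylk2, the kinase that phosphorylates the regulatory light chain of fast muscle, had 1037, 540.2, 492, 511 and 507 CPM in sham control 1 to 5 and 277, 317, 338, 259.8 and 343 CPM in MOV control 1 to 5. No MOV library lay within the sham range, with sham control 1 at the top (log2FC -1.01 ± 0.21, adjusted p 0.0556 by edgeR and 5.76e-04 by DESeq2, MOV control 5 value -0.82, rRNA-adjusted value -0.43). Of 12 slow sarcomere genes, 10 had a positive log2FC and the median was 0.89, but DESeq2 called 1 higher and 1 lower, against 2.62% of all genes called higher and 3.48% lower. For this list it called 0 to 5 higher and 0 to 2 lower with 1 library left out, and 0 higher and 1 lower without the 3 libraries. Casq2, the calsequestrin of slow and cardiac fibres, was higher (70.1 ± 38.1 CPM in sham control and 188 ± 83.7 CPM in MOV control, DESeq2 adjusted p 0.0109, MOV control 5 value 0.23, rRNA-adjusted value 0.10), and Myl2, the slow regulatory light chain, was lower (244 ± 71.6 CPM in sham control and 151 ± 39.4 CPM in MOV control, DESeq2 adjusted p 0.0483). The list median was -0.49 in MOV control 5 alone and -0.38 adjusted for rRNA, so the positive median rested on MOV control 1 to 4.

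Sarcolipin (Sln), a small peptide that slows the calcium pump of the sarcoplasmic reticulum, was among the genes with the largest differences. It lies on chromosome 9, 53850251 to 53853849. Sln had 3.54, 30.3, 70.6, 41.6 and 13.7 CPM in sham control 1 to 5 and 173, 108, 115, 429 and 769 CPM in MOV control 1 to 5. All MOV control libraries were above all sham control libraries, but they ranged widely, and MOV control 4 and 5 were the highest. The mean was 9.97 times that of sham control, and the log2FC was 3.31 ± 0.74, with an adjusted p of 0.0630 by edgeR, 0.00192 by DESeq2 and 0.0247 by voom. Its MOV control 5 value was 4.60 and its rRNA-adjusted value 3.78. Without sham control 1, MOV control 4 and MOV control 5 the log2FC was 1.72. The related peptides phospholamban (Pln, 0.593 to 0.759 CPM on average, log2FC 0.35 ± 0.57) and myoregulin (Mrln, 35.2 to 17.6 CPM, log2FC -1.001 ± 0.39) were not called by edgeR or DESeq2. Of 19 genes of calcium release and handling, DESeq2 called 1, against 3.48% of all genes called lower. This was Itpr1, an inositol trisphosphate receptor, which was lower (53.1 ± 14.7 CPM in sham control and 29.1 ± 10.3 CPM in MOV control, DESeq2 adjusted p 0.0215, MOV control 5 value -0.19, rRNA-adjusted value -0.30). For this list DESeq2 called 0 to 1 higher and 0 to 2 lower with 1 library left out, and 0 higher and 2 lower without the 3 libraries. The ryanodine receptor gene Ryr1 (0.22) and calsequestrin 1 gene Casq1 (-0.06) had log2FC values near that of all genes.

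Genes of the Z-disc and costamere, the structures that take up load, were higher on balance. DESeq2 called 7 of 22 higher and 1 lower, and the median log2FC was 0.60, against 2.62% of all genes called higher and 3.48% lower. The median was 0.48 in MOV control 5 alone, 0.22 adjusted for rRNA and 0.25 without the 3 libraries that lay apart. DESeq2 called 2 to 8 higher and 1 lower with 1 library left out, and 3 higher and 2 lower without the 3 libraries.

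Ankrd1 (CARP), a stress-induced ankyrin repeat protein bound to titin, lies on chromosome 19, 36111965 to 36119844 and had 12.7, 53.9, 93.9, 116 and 45.03 CPM in sham control 1 to 5 and 173, 118, 151, 419.7 and 441 CPM in MOV control 1 to 5. The ranges of the groups were apart, and MOV control 4 and 5 were well above MOV control 1 to 3. Its log2FC was 2.02 ± 0.53, with an adjusted p of 0.0809 by edgeR and 0.0239 by DESeq2 and a MOV control 5 value of 2.79 and an rRNA-adjusted value of 1.75. Ankrd2, its near relative, had 169.6 ± 40.0 CPM in sham control and 204 ± 61.3 CPM in MOV control (SD, n = 5) and was not called (log2FC 0.27 ± 0.21, adjusted p 0.535 by edgeR). Csrp3 (muscle LIM protein) was at 322 ± 126 CPM in sham control and 669 ± 283 CPM in MOV control, with overlapping groups and a DESeq2 adjusted p of 0.0150. Lmcd1, a LIM domain protein, had 225, 247, 331, 311 and 209.9 CPM in sham control 1 to 5 and 401, 419, 414, 628 and 527 CPM in MOV control 1 to 5. Its groups did not overlap (log2FC 0.85 ± 0.18, DESeq2 adjusted p 9.77e-04, MOV control 5 value 1.02, rRNA-adjusted value 0.55). The actin regulator Enah was at 90.2 ± 27.0 CPM in sham control and 221 ± 109 CPM in MOV control (DESeq2 adjusted p 0.00137), with MOV control 4 highest. Tcap (telethonin), which caps titin at the Z-disc, went the other way, at 2769 ± 849 CPM in sham control and 1471 ± 361 CPM in MOV control (log2FC -0.91 ± 0.22, DESeq2 adjusted p 0.00247), and its MOV control 5 value was -0.37 and its rRNA-adjusted value -0.52.

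Among satellite cell and myogenic genes DESeq2 called 4 of 26 higher and 0 lower, against 2.62% of all genes called higher, and the list median was 0.35. The median was -0.10 in MOV control 5 alone, -0.10 adjusted for rRNA and 0.27 without the 3 libraries that lay apart, and DESeq2 called 1 to 5 higher and 0 to 1 lower with 1 library left out, and 4 higher and 2 lower without the 3 libraries. With MOV control 5 as the lone MOV library it called 1 higher and 1 lower. Pax7, the transcription factor of satellite cells, had 3.39, 5.09, 4.39, 2.79 and 3.15 CPM in sham control 1 to 5 and 7.47, 7.99, 6.36, 14.01 and 6.67 CPM in MOV control 1 to 5. MOV and sham libraries did not overlap, with MOV control 4 highest (log2FC 1.17 ± 0.27, adjusted p 0.0630 by edgeR and 0.00369 by DESeq2). Ncam1, an adhesion molecule of satellite cells and of denervated or regenerating fibres, had 4.93, 14.2, 21.6, 22.2 and 9.71 CPM in sham control 1 to 5 and 50.8, 30.7, 23.6, 61.3 and 31.1 CPM in MOV control 1 to 5. These groups were apart as well (log2FC 1.44 ± 0.38, DESeq2 adjusted p 0.00659). The other members called were Fgfr4 and Heyl, named after their values were seen. Myod1 (24.5 ± 6.07 CPM in sham control and 35.3 ± 15.1 CPM in MOV control) and Myog (14.8 ± 10.2 CPM in sham control and 39.4 ± 20.3 CPM in MOV control), the factors of commitment and differentiation, were not called (adjusted p 0.300 and 0.174 by edgeR). The MOV control 5 values were 0.84 for Pax7, 1.11 for Ncam1, 0.19 for Myod1 and -0.20 for Myog, and the rRNA-adjusted values were 0.86, 0.72, 0.57 and -0.22.

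Genes of the neuromuscular junction that respond to denervation were higher in part. Of 20 tested, DESeq2 called 5 higher and 0 lower, against 2.62% of all genes called higher, with a median of 0.33. That median was 0.42 in MOV control 5 alone, 0.21 adjusted for rRNA and 0.26 without the 3 libraries that lay apart, and the calls were 1 to 8 higher and 0 to 1 lower with 1 library left out, and 3 higher and 1 lower without the 3 libraries. Chrna1, the alpha subunit of the muscle acetylcholine receptor, lies on chromosome 2, 73563281 to 73580338 and had 18.02, 40.2, 46.8, 37.99 and 21.6 CPM in sham control 1 to 5 and 81.1, 59.1, 49.0, 104 and 105 CPM in MOV control 1 to 5. The lowest MOV library was above the highest sham library (log2FC 1.27 ± 0.29, adjusted p 0.0630 by edgeR and 0.00194 by DESeq2). The MOV control 5 value was 1.69 and the rRNA-adjusted value 1.42. Chrne, the adult receptor subunit, was at 20.7 ± 3.57 CPM in sham control and 20.6 ± 5.83 CPM in MOV control, and Chrng, the fetal subunit, at 3.10 ± 4.42 CPM in sham control and 8.27 ± 4.44 CPM in MOV control, neither of them called (adjusted p 0.982 and 0.391 by edgeR). Runx1, a transcription factor induced in denervated fibres, was at 17.9 ± 11.5 CPM in sham control and 48.8 ± 12.4 CPM in MOV control, with overlapping groups and a DESeq2 adjusted p of 0.0201. In Schwann cell genes, which could come with nerve in the sample, MOV control 5 stood out. The 11 genes summed to 67.3 to 107 CPM in sham control and 53.0 to 167 CPM in MOV control, the highest value being MOV control 5, and DESeq2 called none of them.

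Growth signalling was described by 3 lists. In IGF and insulin signalling DESeq2 called 3 of 21 higher and 1 lower, against 2.62% of all genes called higher and 3.48% lower, with a median of 0.07 (-0.14 in MOV control 5 alone, -0.10 adjusted for rRNA and -0.13 without the 3 libraries that lay apart). The calls were 1 to 3 higher and 1 to 2 lower with 1 library left out, and 3 higher and 1 lower without the 3 libraries. Igf2, a growth factor of fetal and regenerating muscle, had 1.001, 2.18, 5.76, 5.87 and 1.14 CPM in sham control 1 to 5 and 17.7, 14.3, 10.5, 30.2 and 3.33 CPM in MOV control 1 to 5. MOV control 1 to 4 were above every sham library and MOV control 5 was within the sham range (log2FC 2.23 ± 0.59, DESeq2 adjusted p 0.00332, MOV control 5 value 0.07, rRNA-adjusted value -0.10). Igf1 was at 89.9 ± 42.8 CPM in sham control and 127 ± 66.6 CPM in MOV control and was not called (adjusted p 0.580 by edgeR). Igfbp6, a binding protein that prefers IGF2, was lower at 70.7 ± 10.01 CPM in sham control and 37.2 ± 15.8 CPM in MOV control (DESeq2 adjusted p 0.00856, MOV control 5 value -1.70, rRNA-adjusted value -1.44).

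Myostatin (Mstn), the secreted brake on muscle growth, lies on chromosome 1, 53061640 to 53068079 and had 82.4, 61.4, 28.0, 37.0 and 86.4 CPM in sham control 1 to 5 and 10.5, 13.7, 18.7, 9.51 and 26.9 CPM in MOV control 1 to 5. All MOV control libraries were below all sham control libraries. The sham mean was 3.73 times the MOV mean, and the log2FC was -1.90 ± 0.35. The adjusted p was 0.0554 by edgeR, 3.47e-05 by DESeq2 and 0.0170 by voom. The MOV control 5 value was -1.11 and the rRNA-adjusted value -0.89. Its extracellular inhibitor follistatin (Fst) was at 9.89 ± 2.98 CPM in sham control and 17.1 ± 5.598 CPM in MOV control and was not called (adjusted p 0.131 by edgeR). Ltbp3, which binds latent TGF-beta, was higher at 97.8 ± 31.5 CPM in sham control and 154 ± 13.8 CPM in MOV control (DESeq2 adjusted p 0.0307). In the myostatin, activin, TGF-beta and BMP list of 29 genes, these were the only calls by DESeq2, 1 higher and 1 lower, against 2.62% of all genes called higher and 3.48% lower. DESeq2 called 0 to 3 higher and 1 to 2 lower with 1 library left out, and 1 higher and 1 lower without the 3 libraries, and the list median was 0.01.

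Atrophy and FoxO-linked genes split by member, with 3 of 21 called higher and 3 lower by DESeq2, against 2.62% of all genes called higher and 3.48% lower. It called 2 to 3 higher and 3 to 5 lower with 1 library left out, and 2 higher and 5 lower without the 3 libraries. Fbxo32 (atrogin-1), a ubiquitin ligase of wasting muscle, was lower, at 274.4 ± 83.0 CPM in sham control and 146 ± 28.2 CPM in MOV control (log2FC -0.91 ± 0.21, DESeq2 adjusted p 0.00220). Trim63 (MuRF1), the other well-known ligase, was at 156 ± 45.3 CPM in sham control and 142 ± 34.0 CPM in MOV control and was not called (adjusted p 0.769 by edgeR). Txnip, which restrains glucose uptake, had 579.7, 459, 252, 323 and 551 CPM in sham control 1 to 5 and 157, 192, 191, 120.1 and 132 CPM in MOV control 1 to 5. The groups were apart (log2FC -1.45 ± 0.24, adjusted p 0.0551 by edgeR and 2.46e-06 by DESeq2, MOV control 5 value -1.69, rRNA-adjusted value -1.29). Eda2r, the receptor of ectodysplasin A2, had 28.0, 33.8, 55.3, 41.1 and 38.7 CPM in sham control 1 to 5 and 77.9, 70.4, 85.0, 162 and 136 CPM in MOV control 1 to 5. Here all MOV control libraries were higher than all sham control libraries, with MOV control 5 among the highest (log2FC 1.43 ± 0.25, DESeq2 adjusted p 5.73e-05, MOV control 5 value 1.81, rRNA-adjusted value 1.37). Cdkn1a (p21), an inhibitor of cyclin-dependent kinases, was higher at 36.3 ± 18.4 CPM in sham control and 111 ± 50.05 CPM in MOV control (DESeq2 adjusted p 7.87e-04), with overlapping groups and a MOV control 5 value of 0.55 and an rRNA-adjusted value of 0.55.

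Of 14 genes of polyamine metabolism DESeq2 called 1 higher and 3 lower, against 2.62% of all genes called higher and 3.48% lower, and the median was 0.14 (-0.12 in MOV control 5 alone, -0.14 adjusted for rRNA and -0.03 without the 3 libraries that lay apart). The one called higher was Azin1, an inhibitor of the antizyme of ornithine decarboxylase, at 68.2 ± 10.01 CPM in sham control and 119 ± 44.7 CPM in MOV control (log2FC 0.81 ± 0.22, DESeq2 adjusted p 0.0232, named after its value was seen). With 1 library left out DESeq2 called 0 or 1 higher and 3 lower, and without the 3 libraries 0 higher and 2 lower. Smox, spermine oxidase, had 331, 166, 78.0, 166 and 257 CPM in sham control 1 to 5 and 38.03, 55.0, 53.8, 41.3 and 67.9 CPM in MOV control 1 to 5. The groups were apart (log2FC -1.96 ± 0.32, adjusted p 0.0551 by edgeR, 1.38e-06 by DESeq2 and 0.0153 by voom), and the MOV control 5 value was -1.53 and its rRNA-adjusted value -1.31. Amd1, which makes the aminopropyl donor for spermidine and spermine, was at 636 ± 384 CPM in sham control and 161 ± 67.2 CPM in MOV control, with overlapping groups and a DESeq2 adjusted p of 0.00560. Its near-identical copy Amd2 (8.54 ± 4.84 CPM in sham control and 1.9995 ± 0.309 CPM in MOV control, DESeq2 adjusted p 7.93e-05) shares sequence with it, and the split of reads between them is uncertain. Odc1, ornithine decarboxylase, was at 161 ± 35.9 CPM in sham control and 162 ± 22.4 CPM in MOV control (adjusted p 0.979 by edgeR).

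Among small adaptor and growth-linked genes DESeq2 called 4 of 21 higher and 1 lower, against 2.62% of all genes called higher and 3.48% lower, with a median of 0.48 (0.06 in MOV control 5 alone, 0.10 adjusted for rRNA and 0.24 without the 3 libraries that lay apart). For these it called 2 to 7 higher and 1 lower with 1 library left out, and 4 higher and 0 lower without the 3 libraries. Tceal7, an X-linked gene that acts in the MyoD programme of differentiating myoblasts, lies on chromosome X, 136224041 to 136226100 and had 29.5, 76.0, 121, 84.1 and 43.3 CPM in sham control 1 to 5 and 319.6, 201, 268, 409 and 219.5 CPM in MOV control 1 to 5. The lowest MOV library was above the highest sham library (log2FC 1.998 ± 0.34, adjusted p 0.0551 by edgeR, 3.70e-06 by DESeq2 and 0.0104 by voom). Its MOV control 5 value was 1.65 and its rRNA-adjusted value 1.16. Bex1, of the neighbouring X-linked family and a known gene of regenerating muscle, was at 13.99 ± 4.74 CPM in sham control and 36.2 ± 20.3 CPM in MOV control, with overlapping groups and a DESeq2 adjusted p of 0.00338.

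Genes of glycolysis and glycogen held the most DESeq2 calls of the 45 lists, and these calls were all lower. Of 32 glycolysis and glycogen genes, 27 had a negative log2FC, and DESeq2 called 16 lower and 0 higher, which is to be read against the 3.48% of all genes called lower. The list median was -0.53, with -0.33 in MOV control 5 alone, -0.24 adjusted for rRNA and -0.54 without the 3 libraries that lay apart. DESeq2 called 0 to 1 higher and 8 to 20 lower with 1 library left out, and 0 higher and 19 lower without the 3 libraries, and 2 lower with MOV control 5 as the lone MOV library.

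Slc2a4 (GLUT4), the insulin-responsive glucose transporter, had 734, 500.4, 322, 379 and 438 CPM in sham control 1 to 5 and 217, 265, 231, 234 and 266 CPM in MOV control 1 to 5. All MOV control libraries were below all sham control libraries and they differed little among themselves (log2FC -0.97 ± 0.20, adjusted p 0.0554 by edgeR and 5.31e-04 by DESeq2, MOV control 5 value -0.81, rRNA-adjusted value -0.56). Pfkm, muscle phosphofructokinase, was at 3562 ± 902 CPM in sham control and 2139 ± 209.8 CPM in MOV control (DESeq2 adjusted p 0.00198), and Pygm, muscle glycogen phosphorylase, at 6739.6 ± 1786 CPM in sham control and 3807 ± 739.7 CPM in MOV control (DESeq2 adjusted p 0.00286). Slc16a3 (MCT4), the lactate exporter, was at 253 ± 72.4 CPM in sham control and 133 ± 16.2 CPM in MOV control (DESeq2 adjusted p 2.74e-04). Ldha, lactate dehydrogenase A, was at 2938 ± 493 CPM in sham control and 2335 ± 251 CPM in MOV control and was not called (adjusted p 0.310 by edgeR).

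In fatty acid uptake and beta-oxidation, 27 of 28 genes had a negative log2FC and DESeq2 called 12 lower and 0 higher, against 3.48% of all genes called lower (median -0.56). The median was -0.31 in MOV control 5 alone and -0.32 adjusted for rRNA. Lpl, the lipase that frees fatty acids from lipoproteins, had 1143, 695, 406, 444 and 803 CPM in sham control 1 to 5 and 278, 389, 283, 184 and 175 CPM in MOV control 1 to 5. The groups did not overlap (log2FC -1.41 ± 0.30, DESeq2 adjusted p 3.27e-04, MOV control 5 value -1.97, rRNA-adjusted value -0.94). Cd36, the fatty acid translocase, was at 259.7 ± 79.2 CPM in sham control and 117 ± 29.9 CPM in MOV control (DESeq2 adjusted p 3.36e-04), and Acadm, the medium-chain acyl-CoA dehydrogenase, at 336 ± 128 CPM in sham control and 182 ± 8.597 CPM in MOV control (DESeq2 adjusted p 0.00487).

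The mitochondrial lists also held calls in 1 direction. The Krebs cycle and pyruvate dehydrogenase list had 12 of 28 genes called lower by DESeq2 and 0 higher, against 3.48% of all genes called lower (median -0.39). Its median was -0.35 in MOV control 5 alone, -0.24 adjusted for rRNA and -0.46 without the 3 libraries that lay apart. The calls were 0 higher and 4 to 14 lower with 1 library left out, and 0 higher and 9 lower without the 3 libraries. Mpc2, of the mitochondrial pyruvate carrier, was at 239.6 ± 76.3 CPM in sham control and 122.6 ± 13.0 CPM in MOV control (log2FC -0.97 ± 0.20, DESeq2 adjusted p 7.27e-04). Pdha1, of pyruvate dehydrogenase, was at 491 ± 116 CPM in sham control and 303 ± 35.8 CPM in MOV control (DESeq2 adjusted p 0.00504), while citrate synthase (Cs) was at 834 ± 204 CPM in sham control and 660.4 ± 74.3 CPM in MOV control and was not called (adjusted p 0.330 by edgeR). In the nuclear-encoded respiratory chain, 77 of 80 genes had a negative log2FC, DESeq2 called 8 lower, against 3.48% of all genes called lower, and the median was -0.36. Here the median was -0.12 in MOV control 5 alone, -0.14 adjusted for rRNA and -0.39 without the 3 libraries that lay apart, and the calls were 0 higher and 1 to 16 lower with 1 library left out, and 0 higher and 17 lower without the 3 libraries. Cox7a1, the muscle form of a cytochrome oxidase subunit, was at 222 ± 82.9 CPM in sham control and 109.7 ± 18.7 CPM in MOV control (DESeq2 adjusted p 0.00198).

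All 11 protein genes of the mitochondrial genome tested had a negative log2FC, and DESeq2 called 6 lower, against 3.48% of all genes called lower (0 higher and 3 to 10 lower with 1 library left out, and 0 higher and 6 lower without the 3 libraries, median -0.72). They took between 7.603 and 11.4% of counts in sham control and between 5.40 and 7.85% in MOV control. mt-Nd5, a subunit of complex I, had 12208, 9102, 6529.7, 7228 and 9447 CPM in sham control 1 to 5 and 3943, 5228, 4647, 3834 and 5985 CPM in MOV control 1 to 5. No MOV library lay within the sham range, with a log2FC of -0.91 ± 0.22 and a DESeq2 adjusted p of 6.05e-04 (MOV control 5 value -0.55, rRNA-adjusted value -0.38). The mitochondrial rRNAs are products of the same genome. The list median was -0.50 in MOV control 5 alone and -0.15 adjusted for rRNA.

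Among 21 regulators of metabolic transcription DESeq2 called Perm1 alone, against 3.48% of all genes called lower, and 0 to 1 higher and 1 to 4 lower with 1 library left out, and 0 higher and 3 lower without the 3 libraries. Perm1, a muscle partner of PGC-1 and ERR, was lower at 299 ± 102 CPM in sham control and 137 ± 39.4 CPM in MOV control (log2FC -1.12 ± 0.26, adjusted p 0.0630 by edgeR and 0.00128 by DESeq2, MOV control 5 value -1.99, rRNA-adjusted value -1.15). Ppargc1a (PGC-1alpha) was at 34.8 ± 8.51 CPM in sham control and 24.1 ± 4.49 CPM in MOV control and Esrra (ERRalpha) at 106 ± 23.7 CPM in sham control and 76.8 ± 10.1 CPM in MOV control, neither of them called (adjusted p 0.161 and 0.152 by edgeR). In the circadian clock list DESeq2 called 2 of 19 lower and 0 higher, against 3.48% of all genes called lower (0 higher and 1 to 4 lower with 1 library left out, and 0 higher and 3 lower without the 3 libraries). The core clock genes Arntl (log2FC -0.16 ± 0.21) and Per2 (-0.01 ± 0.27) and the output Dbp (0.08 ± 0.24) were not called by edgeR or DESeq2.

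Host transcripts of microRNAs were counted, although mature microRNAs were not measured in these libraries. H19, an imprinted RNA that holds miR-675, lies on chromosome 7, 142575530 to 142578146 next to Igf2 and had 596, 2052, 4144, 2976 and 863 CPM in sham control 1 to 5 and 5277, 5259, 4712, 7967 and 5076 CPM in MOV control 1 to 5. The groups were apart, with MOV control 4 highest (log2FC 1.41 ± 0.44, adjusted p 0.127 by edgeR and 0.0164 by DESeq2, MOV control 5 value 1.27, rRNA-adjusted value 0.60). Mir22hg, the host of miR-22, lies on chromosome 11, 75461539 to 75466690 and had 25.9, 42.5, 45.3, 38.3 and 31.7 CPM in sham control 1 to 5 and 63.1, 62.8, 53.5, 79.9 and 66.1 CPM in MOV control 1 to 5. These groups were apart too (log2FC 0.82 ± 0.16, adjusted p 0.0554 by edgeR and 0.00130 by DESeq2, MOV control 5 value 0.87, rRNA-adjusted value 0.73). Mir99ahg was higher at 7.11 ± 2.06 CPM in sham control and 12.5 ± 2.59 CPM in MOV control (DESeq2 adjusted p 0.0268). The mature sequences held by the first pair of hosts are given 5′ to 3′ from RefSeq (GRCm38.p6), with the seed, bases 2 to 8, in capitals. No 2 of the 4 share a seed.
mmu-miR-675-5p, chr7:142577112-142577133, minus strand: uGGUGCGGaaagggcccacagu
mmu-miR-675-3p, chr7:142577078-142577099, minus strand: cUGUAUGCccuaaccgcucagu
mmu-miR-22-5p, chr11:75463734-75463755, plus strand: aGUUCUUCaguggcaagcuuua
mmu-miR-22-3p, chr11:75463772-75463793, plus strand: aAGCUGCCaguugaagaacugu

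Of 9 host transcripts outside the muscle-specific family, DESeq2 called these 3 higher and 0 lower, against 2.62% of all genes called higher. The list median was 0.69 (-0.04 in MOV control 5 alone, 0.05 adjusted for rRNA and 0.64 without the 3 libraries that lay apart). DESeq2 called 1 to 3 higher and 0 lower with 1 library left out, and 3 higher and 0 lower without the 3 libraries. Of 7 genes of muscle microRNAs, DESeq2 called Mir1a-1 higher, against 2.62% of all genes called higher. In this list it called 0 to 2 higher with 1 library left out and 0 without the 3 libraries, and voom called 0. Mir1a-1 had 1.34 ± 0.582 CPM in sham control and 5.39 ± 5.56 CPM in MOV control with MOV control 4 far above the rest. Reads on such a hairpin gene come from its host or precursor and give no level of the mature miR-1.

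Of 83 ribosomal protein genes 69 had a positive log2FC, with a median of 0.16, and DESeq2 called 2 higher and 1 lower, against 2.62% of all genes called higher and 3.48% lower. The median was 0.51 in MOV control 5 alone, 0.33 adjusted for rRNA and -0.01 without the 3 libraries that lay apart. The calls were 0 to 2 higher and 1 lower with 1 library left out, and 2 higher and 2 lower without the 3 libraries. Rpl3l, the muscle-specific copy of Rpl3, was lower at 519 ± 147 CPM in sham control and 283 ± 52.9 CPM in MOV control (log2FC -0.88 ± 0.20, DESeq2 adjusted p 0.00174), and Rps12 was higher at 95.2 ± 10.7 CPM in sham control and 139 ± 26.5 CPM in MOV control (DESeq2 adjusted p 0.0229). None of 40 genes of ribosome biogenesis was called by edgeR or DESeq2 (median -0.06). At an unadjusted edgeR p under 0.05 there were 5 higher and 1 lower, or 15.0% of the list against 18.2% of all genes. Myc was at 5.12 ± 2.51 CPM in sham control and 10.2 ± 6.797 CPM in MOV control (adjusted p 0.284 by edgeR). In the amino acid response list Atf5 was lower at 54.4 ± 22.6 CPM in sham control and 30.1 ± 3.20 CPM in MOV control (DESeq2 adjusted p 0.0113), whereas Atf4, at 186 ± 25.9 CPM in sham control and 145 ± 14.6 CPM in MOV control, was not called (adjusted p 0.170 by edgeR). The list had 2 of 27 genes called lower by DESeq2 and 0 higher, against 3.48% of all genes called lower (0 to 2 higher and 1 to 4 lower with 1 library left out, and 1 higher and 1 lower without the 3 libraries).

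Of 27 chaperone genes DESeq2 called 2 higher and 0 lower, against 2.62% of all genes called higher. Those were the small heat shock proteins Hspb1 and Hspb8. It called 2 higher and 0 lower with 1 library left out, and 2 higher and 2 lower without the 3 libraries. The list median of 0.10 was -0.20 in MOV control 5 alone, -0.06 adjusted for rRNA and 0.00 without the 3 libraries that lay apart. Hspb1 (HSP25) had 254, 264, 396, 354 and 303 CPM in sham control 1 to 5 and 475, 418, 490.2, 1112 and 782 CPM in MOV control 1 to 5. There was no overlap between the groups, with MOV control 4 and 5 highest (log2FC 1.06 ± 0.26, DESeq2 adjusted p 0.00512, MOV control 5 value 1.34, rRNA-adjusted value 0.88). Hspb8 was at 518 ± 54.0 CPM in sham control and 1054 ± 459 CPM in MOV control (DESeq2 adjusted p 0.00512). Cryab, another small heat shock protein of the sarcomere, named after its value was seen, was at 742 ± 89.0 CPM in sham control and 988 ± 383 CPM in MOV control and was not called (log2FC 0.41 ± 0.22, adjusted p 0.306 by DESeq2 and 0.211 by voom). Hspa5 (BiP), the chaperone of the endoplasmic reticulum, was at 239 ± 49.5 CPM in sham control and 244 ± 42.1 CPM in MOV control and was not called (adjusted p 0.948 by edgeR).

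In the dystrophin and integrin list DESeq2 called 3 of 25 higher and 1 lower, the latter being Nos1, against 2.62% of all genes called higher and 3.48% lower (median 0.18, and 0.03 in MOV control 5 alone, -0.03 adjusted for rRNA and 0.12 without the 3 libraries that lay apart). The counts were 1 to 5 higher and 1 to 3 lower with 1 library left out, and 2 higher and 3 lower without the 3 libraries. Itga7, the laminin-binding integrin of muscle fibres, was at 116 ± 22.4 CPM in sham control and 189 ± 39.7 CPM in MOV control and Dysf, the membrane repair protein dysferlin, at 66.9 ± 6.54 CPM in sham control and 104 ± 23.5 CPM in MOV control (DESeq2 adjusted p 0.0108 and 0.00909). Dmd, dystrophin, was at 100.2 ± 16.9 CPM in sham control and 117 ± 33.9 CPM in MOV control and was not called (adjusted p 0.583 by edgeR). None of 18 Hippo and mechanosensing genes was called by edgeR or DESeq2, and Yap1 had a log2FC of 0.15 ± 0.12. At an unadjusted edgeR p under 0.05 there were 2 higher and 0 lower, against 9.06% of all genes higher and 9.15% lower.

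In the cell cycle list 39 of 45 genes had a positive log2FC (median 0.52), but DESeq2 called 1 higher (the inhibitor Cdkn1a), against 2.62% of all genes called higher. The voom calls were 3, all higher, against 2.8% of all genes called higher by voom. Mki67, which marks dividing cells, was at 11.3 ± 7.05 CPM in sham control and 16.3 ± 8.96 CPM in MOV control (adjusted p 0.597 by edgeR). Without the 3 libraries that lay apart DESeq2 called 9 members higher, out of 365 genes called higher in that setting. The list median was -0.15 in MOV control 5 alone, -0.19 adjusted for rRNA and 0.59 without the 3 libraries that lay apart. Of 38 collagen chains 28 were positive (median 0.41), and DESeq2 called 1 higher and 2 lower, against 2.62% of all genes called higher and 3.48% lower. This median was -0.78 in MOV control 5 alone, -0.42 adjusted for rRNA and 0.39 without the 3 libraries that lay apart. DESeq2 called 0 to 2 higher and 1 to 2 lower with 1 library left out, and 4 higher and 2 lower without the 3 libraries. Col9a1, a cartilage and tendon-sheath collagen, was lower at 7.82 ± 3.17 CPM in sham control and 2.65 ± 0.329 CPM in MOV control (log2FC -1.56 ± 0.27, adjusted p 0.0551 by edgeR and 2.94e-05 by DESeq2). Tnc (tenascin C), a matrix protein of loaded and injured tissue, had 9.70, 39.6, 176, 117 and 64.1 CPM in sham control 1 to 5 and 303, 305, 185, 191 and 147 CPM in MOV control 1 to 5. MOV control 1 to 4 were above every sham library and MOV control 5 was below sham control 3, and DESeq2 did not call it (adjusted p 0.157, against 0.0424 by voom, MOV control 5 value 0.87, rRNA-adjusted value 0.65).

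Of 57 matrix proteins, crosslinkers and proteases, DESeq2 called 2 lower and 0 higher, against 3.48% of all genes called lower. For these genes voom called 2 higher and 1 lower, against 2.8% of all genes higher and 3.52% lower, and the median was 0.15. DESeq2 called 0 to 2 higher and 1 to 3 lower with 1 library left out, and 5 higher and 3 lower without the 3 libraries. The median was then 0.15, against -0.80 in MOV control 5 alone and -0.42 adjusted for rRNA. Fn1 (fibronectin, 658 ± 447 CPM in sham control and 950.0 ± 437 CPM in MOV control) and Postn (periostin, 1080.0 ± 895 CPM in sham control and 1781 ± 924 CPM in MOV control) differed between groups by less than the SD within either group. Among 13 tendon genes DESeq2 called 2 lower, against 3.48% of all genes called lower. The tendon median was -0.28, and -2.02 in MOV control 5 alone, -0.66 adjusted for rRNA and 0.07 without the 3 libraries that lay apart. Its calls were 0 to 3 higher and 1 to 2 lower with 1 library left out, and 0 higher and 2 lower without the 3 libraries. Prg4 (lubricin) was at 29.8 ± 10.7 CPM in sham control and 11.4 ± 5.43 CPM in MOV control (DESeq2 adjusted p 0.00160), and Tnmd (tenomodulin), which marks tendon cells, at 65.6 ± 42.1 CPM in sham control and 81.6 ± 63.2 CPM in MOV control (MOV control 5 value -2.29, rRNA-adjusted value -0.22). The tendon list summed to 412 to 1581 CPM in sham control and 699 to 2039.7 CPM in MOV control, a wide range within each group.

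Markers of fibro-adipogenic progenitors summed to 1328 to 1947 CPM in sham control and 666 to 1395 CPM in MOV control, and 14 of 16 had a negative log2FC, with 3 called lower by DESeq2 and 0 higher, against 3.48% of all genes called lower. The median was -0.33 over the list, and -0.96 in MOV control 5 alone, -0.75 adjusted for rRNA and -0.23 without the 3 libraries that lay apart. DESeq2 called 0 higher and 1 to 3 lower with 1 library left out, and 0 higher and 3 lower without the 3 libraries. Gsn (gelsolin), an actin-severing protein abundant in these cells and also made elsewhere, lies on chromosome 2, 35256359 to 35307902 and had 885, 663, 465, 483 and 701 CPM in sham control 1 to 5 and 171, 252, 314, 152 and 215 CPM in MOV control 1 to 5. The highest MOV library was below the lowest sham library (log2FC -1.54 ± 0.23, adjusted p 0.0551 by edgeR, 2.26e-07 by DESeq2 and 0.0144 by voom). The MOV control 5 value was -1.55 and the rRNA-adjusted value -1.10. Dpp4, a marker of their upstream progenitors, was at 8.04 ± 2.69 CPM in sham control and 3.37 ± 1.54 CPM in MOV control (DESeq2 adjusted p 0.0320), and Pdgfra, their defining receptor, at 37.8 ± 10.5 CPM in sham control and 27.2 ± 11.1 CPM in MOV control (adjusted p 0.395 by edgeR).

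Macrophage and monocyte markers summed to 344 to 1551 CPM in sham control and 414 to 1468 CPM in MOV control, and DESeq2 called 1 of 28 lower and 0 higher, against 3.48% of all genes called lower (median -0.12, and -1.32 in MOV control 5 alone, -1.0002 adjusted for rRNA and -0.05 without the 3 libraries that lay apart). For this list DESeq2 called 0 to 1 lower with 1 library left out and 0 without the 3 libraries, and voom called 0. The lowest sums were in sham control 1, MOV control 4 and MOV control 5. Markers of T, NK and B cells summed to 6.18 to 23.1 CPM in sham control and 7.73 to 27.8 CPM in MOV control, with 10 of 12 positive and none called by edgeR or DESeq2 (1 at an unadjusted edgeR p under 0.05, against 18.2% of all genes). The 3 neutrophil markers tested were not called by either tool (0 at an unadjusted edgeR p under 0.05), and sham control 4 held the highest S100a8 and S100a9. Of 15 antigen presentation genes all had a positive log2FC (median 0.19, against -0.83 in MOV control 5 alone and -0.91 adjusted for rRNA). DESeq2 called H2-K1 (a class I heavy chain) higher, against 2.62% of all genes called higher, at 254 ± 94.6 CPM in sham control and 438 ± 86.8 CPM in MOV control (adjusted p 0.0269). In this list DESeq2 called 0 to 2 higher with 1 library left out and 0 without the 3 libraries. None of 23 interferon response genes was called by edgeR or DESeq2 (2 higher at an unadjusted edgeR p under 0.05, against 9.06% of all genes). Their median of 0.27 was -0.95 in MOV control 5 alone, -1.13 adjusted for rRNA and 0.02 without the 3 libraries that lay apart.

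Secreted signals gave a mixed picture, with 1 of 24 chemokine and cytokine genes called higher and 3 lower by DESeq2, against 2.62% of all genes called higher and 3.48% lower (median -0.06, and -0.77 in MOV control 5 alone, -1.15 adjusted for rRNA and -0.09 without the 3 libraries that lay apart). It called 1 to 2 higher and 2 to 4 lower with 1 library left out, and 1 higher and 4 lower without the 3 libraries. Il15, a cytokine made by muscle fibres, had 13.1, 11.9, 6.72, 7.41 and 8.01 CPM in sham control 1 to 5 and 4.49, 4.25, 2.86, 2.34 and 2.27 CPM in MOV control 1 to 5. The groups did not overlap (log2FC -1.53 ± 0.28, adjusted p 0.0554 by edgeR and 5.73e-05 by DESeq2, MOV control 5 value -2.02, rRNA-adjusted value -1.75). Ccl11 (eotaxin) was lower at 12.2 ± 4.65 CPM in sham control and 4.79 ± 0.981 CPM in MOV control (DESeq2 adjusted p 7.35e-04) and Cx3cl1 (fractalkine) higher at 5.26 ± 2.13 CPM in sham control and 15.7 ± 8.13 CPM in MOV control (DESeq2 adjusted p 0.00160). In the complement list 13 of 15 genes had a negative log2FC (median -0.58, and -0.92 in MOV control 5 alone, -0.79 adjusted for rRNA and -0.49 without the 3 libraries that lay apart). DESeq2 called 1 of them lower, against 3.48% of all genes called lower, and 0 higher and 1 to 3 lower with 1 library left out, and 0 higher and 5 lower without the 3 libraries. The gene called was C7, at 6.81 ± 3.24 CPM in sham control and 1.96 ± 1.07 CPM in MOV control (adjusted p 0.00285), while C3 was at 132 ± 43.8 CPM in sham control and 64.3 ± 37.96 CPM in MOV control and was not called (adjusted p 0.0723).

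DESeq2 called 3 of 26 endothelial genes and 3 of 13 pericyte and smooth muscle genes lower, and 0 of either list higher, against 3.48% of all genes called lower. The endothelial median was -0.15, and -0.78 in MOV control 5 alone, -0.65 adjusted for rRNA and -0.08 without the 3 libraries that lay apart. The endothelial calls were 0 higher and 2 to 4 lower with 1 library left out, and 0 higher and 2 lower without the 3 libraries. In the pericyte and smooth muscle list 6 genes had a positive and 7 a negative log2FC, and the median was -0.02, with -0.64 in MOV control 5 alone, -0.52 adjusted for rRNA and 0.16 without the 3 libraries that lay apart. These 13 genes summed to 4633 to 7123 CPM in sham control and 5933 to 9289.5 CPM in MOV control, with MOV control 4 and 5 highest. Vegfa, the growth factor of vessels, was at 262 ± 63.8 CPM in sham control and 169 ± 37.7 CPM in MOV control, and its receptors Flt1 at 40.8 ± 11.2 CPM in sham control and 21.2 ± 5.62 CPM in MOV control and Kdr at 52.1 ± 11.7 CPM in sham control and 29.9 ± 8.52 CPM in MOV control (DESeq2 adjusted p 0.0327, 0.00495 and 0.00804). Pecam1 and Cdh5, which define endothelial cells, were not called (-0.49 ± 0.19 and -0.38 ± 0.20 as log2FC). Kcnj8, a potassium channel of pericytes, had 23.2, 16.4, 11.6, 11.4 and 14.8 CPM in sham control 1 to 5 and 6.31, 7.03, 6.68, 5.01 and 7.23 CPM in MOV control 1 to 5. No MOV library lay within the sham range (log2FC -1.26 ± 0.21, adjusted p 0.0551 by edgeR and 3.01e-05 by DESeq2, MOV control 5 value -1.07, rRNA-adjusted value -0.75), and Rgs5, another pericyte marker, was at 294 ± 58.2 CPM in sham control and 167 ± 43.6 CPM in MOV control (DESeq2 adjusted p 0.00340). The endothelial markers summed to 836 to 1019 CPM in sham control and 515 to 893 CPM in MOV control, lowest in MOV control 5.

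Adipocyte markers summed to 4086 to 5448 CPM in sham control and 3959 to 12380.1 CPM in MOV control, with MOV control 5 highest. Most of that sum was Car3, a carbonic anhydrase that muscle fibres also make, at 4078 ± 539.9 CPM in sham control and 6349.5 ± 3547 CPM in MOV control, and the one member with a positive log2FC (named after its value was seen). The log2FC was negative in 11 of 12 members (median -0.90), and DESeq2 called Plin4 lower, against 3.48% of all genes called lower, and 0 higher and 1 to 3 lower with 1 library left out, and 0 higher and 4 lower without the 3 libraries. Plin4, a lipid droplet protein that muscle fibres also make, was lower at 134 ± 62.5 CPM in sham control and 51.7 ± 14.1 CPM in MOV control (log2FC -1.37 ± 0.28, DESeq2 adjusted p 3.16e-04), while the adipocyte hormone Adipoq was at 3.94 ± 3.80 CPM in sham control and 1.71 ± 2.10 CPM in MOV control (adjusted p 0.625 by DESeq2). Red blood cell genes summed to 32.5 to 92.0 CPM in sham control and 12.2 to 53.7 CPM in MOV control, and DESeq2 called Hba-a1 of 3 lower, against 3.48% of all genes called lower (adjusted p 0.0185), whose reads are shared with its copy Hba-a2. In this list it called 0 to 3 lower with 1 library left out and 0 without the 3 libraries, and voom called 0. The part that the amounts of other cells in each sample played in these results was not tested.

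**Figure D4:**
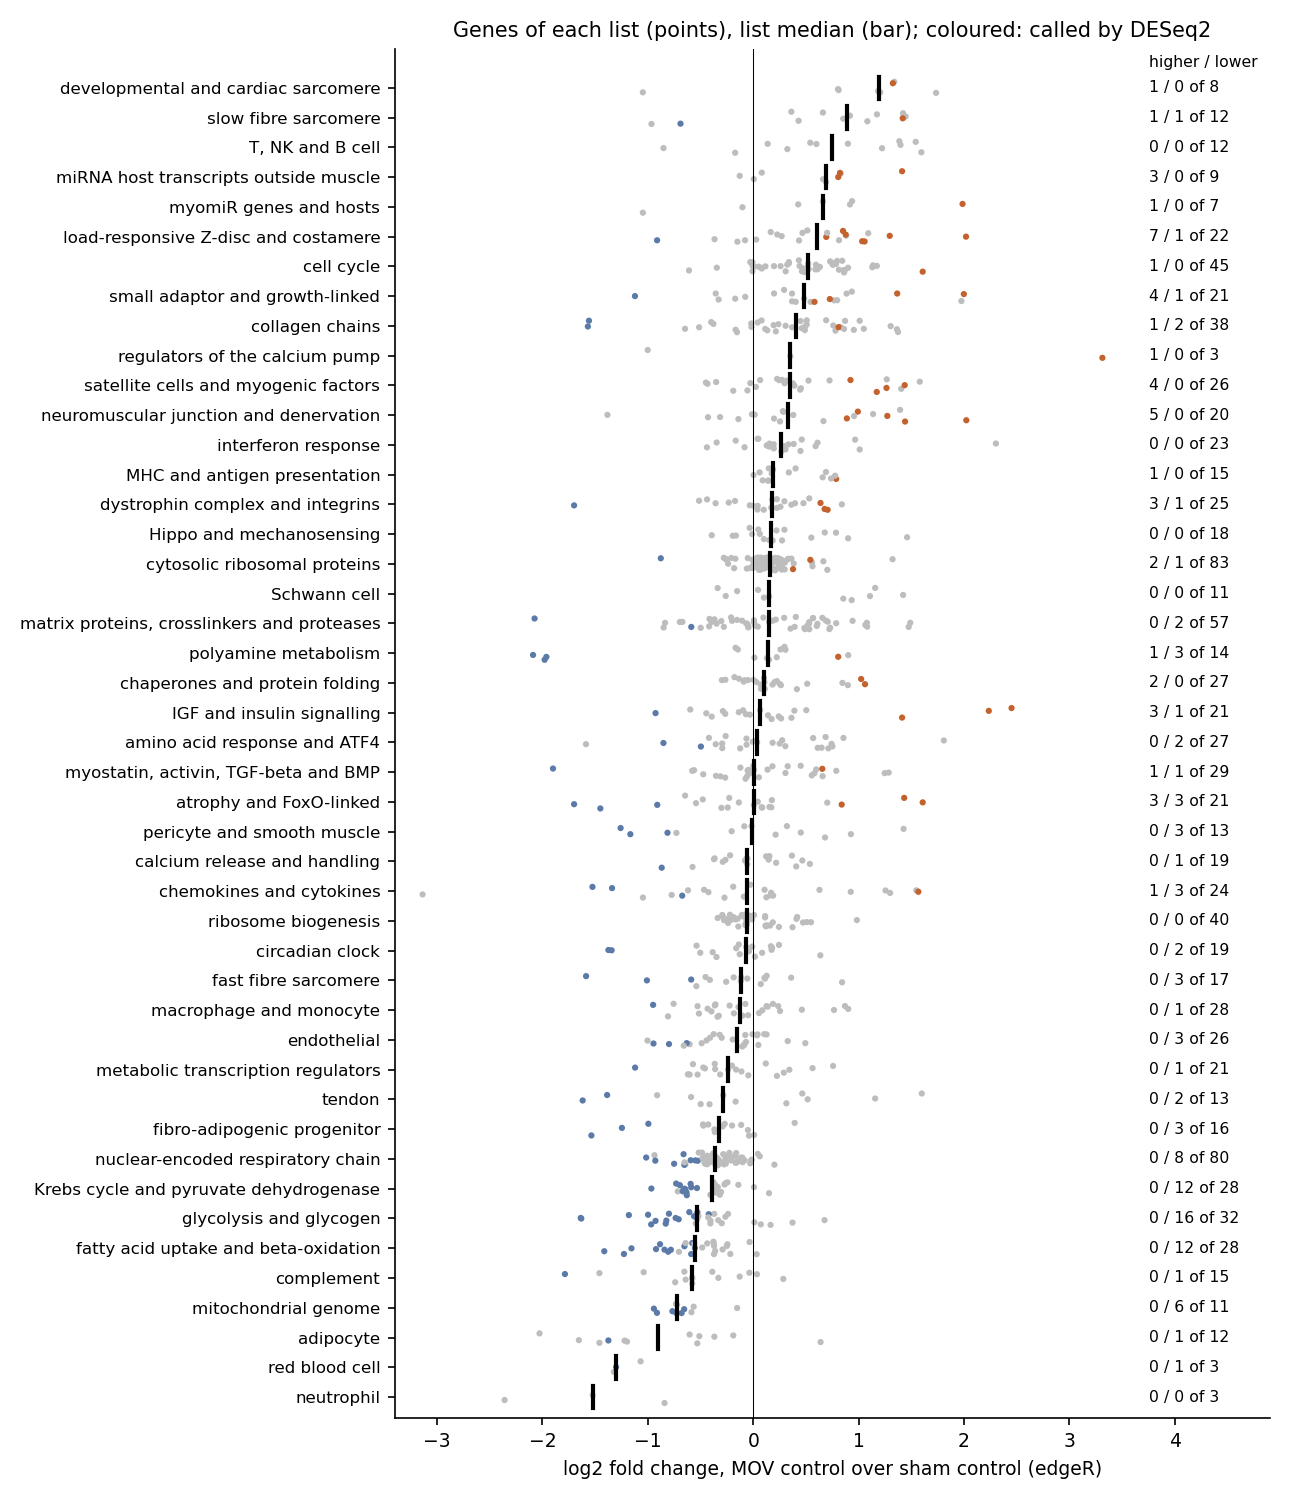
Each point is a tested gene of 1 of the 45 lists, placed by its log2 fold change, with the list median as a black bar and genes called by DESeq2 in colour. Counts of genes called higher and lower stand at the right, and the metabolic lists have the most genes called lower (16 of 32 for glycolysis and glycogen).

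**Figure D5:**
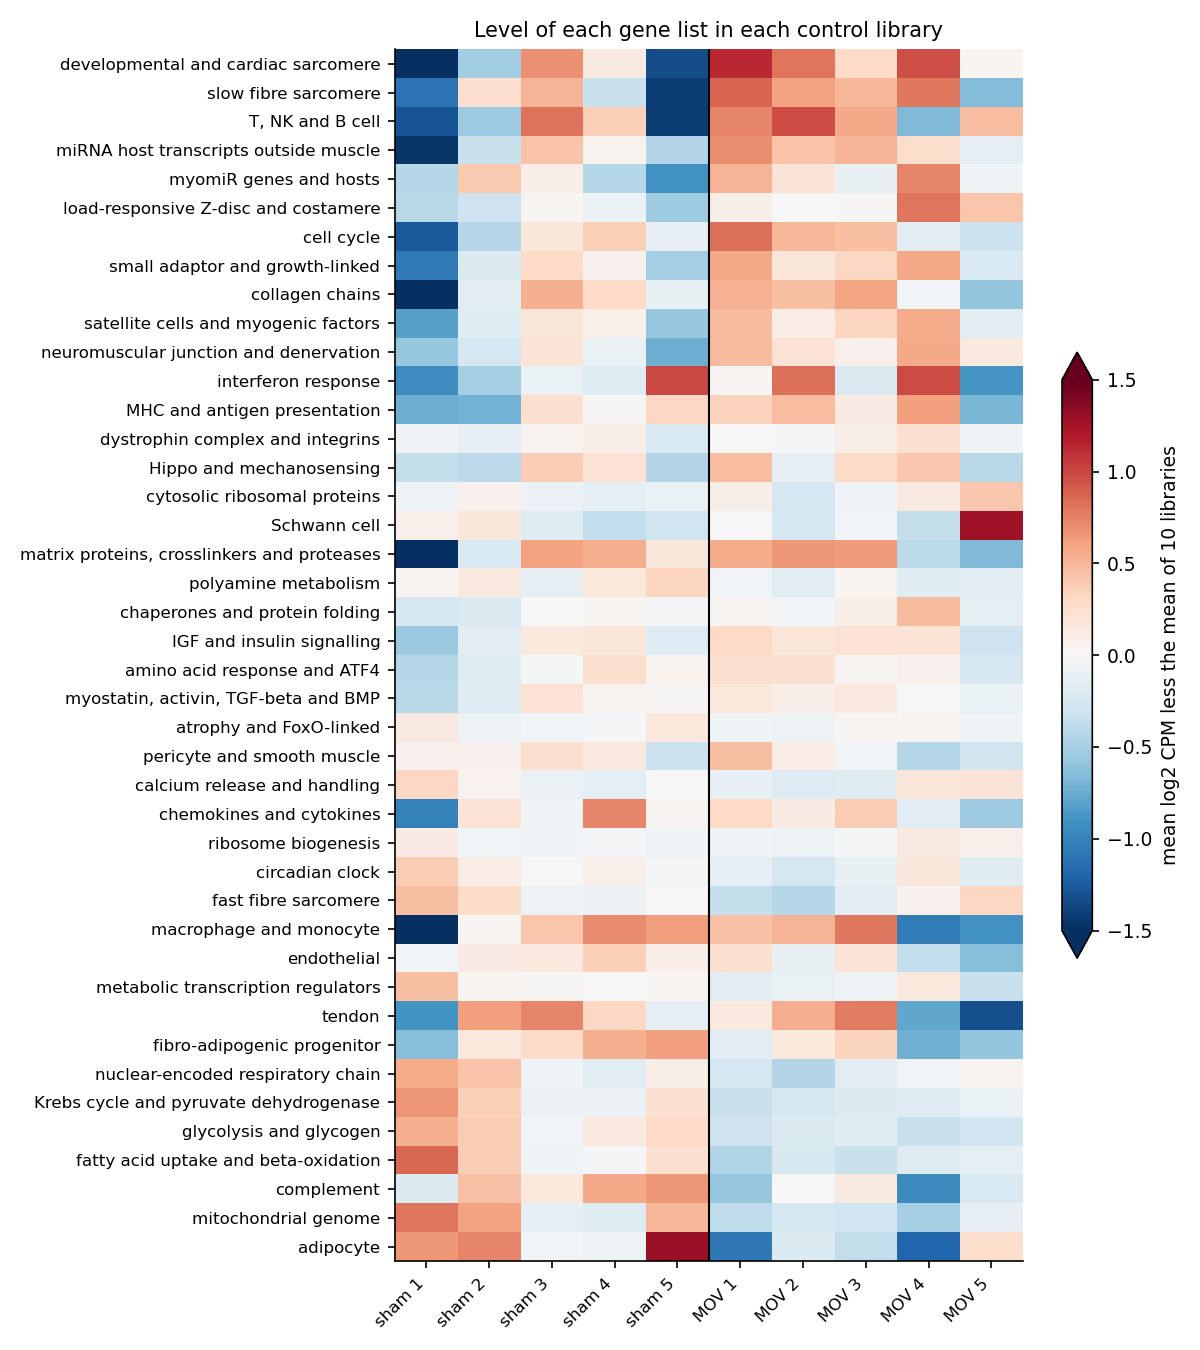
The mean log2 CPM of each list with at least 7 genes tested is shown per library relative to its mean over the 10 libraries (red high, blue low, colours limited at 1.5). MOV control 5 is high in Schwann cell genes, and sham control 1, MOV control 4 and MOV control 5 are low in macrophage genes.

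Some of the largest differences lay outside the lists. Among protein-coding genes called by both DESeq2 and voom with groups apart, the largest differences in each direction are named. Krt18, a keratin of simple epithelia, had 0.0770, 1.64, 2.38, 2.02 and 0.631 CPM in sham control 1 to 5 and 12.1, 5.17, 10.8, 91.6 and 13.0 CPM in MOV control 1 to 5. MOV control 4 was far above the others (log2FC 4.25 ± 0.85, DESeq2 adjusted p 7.45e-04, MOV control 5 value 3.25, rRNA-adjusted value 3.06), and the log2FC was 2.44 without the 3 libraries that lay apart. Gzme, a granzyme, was close to 0 in sham control and at most 15.2 CPM in MOV control (log2FC 4.82 ± 1.05), and its reads may be shared with other granzymes of its cluster. Gldn (gliomedin), known from nodes of Ranvier, had 0.924, 0.788, 1.80, 1.78 and 0.946 CPM in sham control 1 to 5 and 5.10, 4.04, 3.23, 7.73 and 7.94 CPM in MOV control 1 to 5. Here MOV control 5 was also above every sham library (log2FC 2.15 ± 0.36, adjusted p 0.0551 by edgeR and 1.53e-05 by DESeq2, MOV control 5 value 2.68, rRNA-adjusted value 2.06). The sodium channel Scn3a (1.24 to 6.16 CPM from sham control to MOV control), Ripply1 (1.34 to 8.85 CPM), Tmem158 (7.503 to 36.4 CPM), Zfp365 (5.02 to 22.6 CPM), Fam171b (9.47 to 38.9 CPM) and Adamts20 (6.77 to 26.8 CPM) had log2FC values between 1.97 and 2.68. Sln, Ankrd1 and Tceal7 also belonged to this set.

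In the other direction, Odf3l2, a gene related to sperm tail proteins, had 114, 44.8, 51.6, 31.6 and 41.6 CPM in sham control 1 to 5 and 7.47, 6.16, 6.26, 0.0634 and 6.81 CPM in MOV control 1 to 5. The groups were apart and MOV control 4 was lowest (log2FC -3.395 ± 0.61, adjusted p 0.0551 by edgeR and 0.00168 by DESeq2, MOV control 5 value -3.02, rRNA-adjusted value -2.46). Angptl7, an angiopoietin-like secreted protein, was at 13.7 ± 7.45 CPM in sham control and 2.09 ± 1.93 CPM in MOV control (log2FC -2.70 ± 0.55). Myoc (myocilin), a secreted glycoprotein, had 57.3, 57.1, 37.2, 26.4 and 39.2 CPM in sham control 1 to 5 and 7.22, 9.98, 18.6, 3.80 and 19.01 CPM in MOV control 1 to 5. All MOV control libraries were below all sham control libraries (log2FC -1.89 ± 0.38, DESeq2 adjusted p 1.53e-04, MOV control 5 value -1.17, rRNA-adjusted value -0.85). Pcolce2, an enhancer of collagen processing, was at 7.004 ± 2.06 CPM in sham control and 1.51 ± 0.994 CPM in MOV control and Alpl, alkaline phosphatase, at 14.02 ± 6.12 CPM in sham control and 3.57 ± 1.18 CPM in MOV control. Car14, a membrane carbonic anhydrase (21.6 ± 10.4 CPM in sham control and 6.38 ± 1.03 CPM in MOV control), Lyz1 (5.16 ± 1.35 CPM in sham control and 1.30 ± 0.830 CPM in MOV control, with reads that may belong to its copy Lyz2) and the extraocular myosin Myh13 (5.74 ± 4.06 CPM in sham control and 1.39 ± 0.740 CPM in MOV control) were also lower, and Smox, Amd2 and Mstn, described above, belonged to the same set.

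The same surgery could be compared in the muscles with the miR-1 mimic virus, which came from the other legs of the same mice. The edgeR test of MOV mimic against sham mimic called 0 of 14918 genes, with a smallest adjusted p of 0.141 and 1997 genes at an unadjusted p under 0.05. The genes set side by side here were chosen for their difference in control muscles, so a smaller difference in mimic muscles can follow from the choice alone. The log2FC was -1.70 in control and -0.74 in mimic muscles for Nos1, -1.59 and -0.80 for Myh4, 3.31 and 1.68 for Sln, and -1.90 and -1.04 for Mstn. It was 1.998 and 0.55 for Tceal7, -1.54 and -1.06 for Gsn, and -0.97 and -0.80 for Slc2a4. List medians were -0.53 and -0.38 for glycolysis and glycogen, 0.60 and 0.14 for the Z-disc list, 0.19 and 1.43 for antigen presentation, 0.89 and 1.32 for the slow sarcomere, and -0.39 and -0.46 for the Krebs cycle list. The difference between the responses was tested by an interaction term, in which edgeR called 0 of 16166 genes (0.0%), with 426 at an unadjusted p under 0.05 and 1 call by DESeq2. This fit also counted the control and mimic muscles of a mouse as independent libraries.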

How the data were processed

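The authors checked reads with FastQC 0.11.9, trimmed them with Trim Galore 0.6.10, which runs Cutadapt (4.4), aligned them to GRCm38 with Hisat2 2.0.5 and counted them with featureCounts 1.5.0-p3, and they deposited raw counts per gene for 54532 Ensembl genes. Annotation release and strand setting were not given in the sources used here. Without strand, reads of overlapping genes cannot be told apart, and 94 of the 192 genes named by rule overlap another annotated gene, among them Nos1, Myh1, Pax7, Ncam1, Chrna1, Igf2, Txnip, Eda2r, Smox, Lmcd1, Tnc, Gsn, Gldn and Myoc. Symbols were matched for 32640 genes.

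The 10 control-virus libraries were grouped by their labels. The main test was edgeR 4.0.16 (R 4.3.3) with quasi-likelihood fits, TMM scaling and filterByExpr, two-sided, with Benjamini-Hochberg adjustment over all genes tested and a threshold of 0.05. DESeq2 1.42.0 and limma 3.58.1 (voom with quality weights) were alternatives, and the authors' own tool was DESeq2 1.34.0. DESeq2 gave no adjusted p for 299 genes, which were not counted as called. Myosin shares used exact permutation tests and the exon lengths of GENCODE M1 (NCBIM37). Coordinates and sequences came from RefSeq (GRCm38.p6). In a simulation of this comparison with 200 changed genes on 14974 genes, edgeR recovered 46% and 88% of genes changed by an absolute log2FC of 1 and 2 with 7 false calls, DESeq2 62% and 96% with 31, and voom 43% and 86% with 3. No 2 libraries of a group were copies of each other (chi-square per gene at least 14.15).

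The 45 gene lists and the genes named were chosen with earlier results of these data known. Named genes were the first 3 tested members of each list, called list members with the smallest adjusted p, and the 12 called genes with the largest change in each direction with groups apart and a mean of at least 5 CPM in the higher group. Since edgeR called 1 gene, up to 2 members per list and direction and 12 protein-coding genes per direction called by both DESeq2 and voom were added once values had been seen. A few genes that met these rules are not reported here. The fits with the rRNA level, those with MOV control 5 alone and those without 3 libraries were also added then. The labels do not say that libraries came from separate mice, but the study's methods do. Totals of 15301046 to 20228688 counts set the precision, and list levels used log2 CPM with a prior count of 2. Equal replicate numbers join different mice here. Their deviations from the group means correlated at -0.363, -0.0712, 0.114, -0.133 and -0.0136 for replicates 1 to 5, so the numbers were not used as pairs.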

Additional observations from a re-analysis of the deposited data

Results flagged for a closer look

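For 41 of the 384 groups of 5 libraries examined, both groups for each of the 192 genes named by rule, 1 library lay far from the other 4. The measure was Dixon's ratio, the gap to the nearest of the other libraries divided by the range of the group, with a critical value of 0.71 for 5 values. Chance gives such a gap in about 1 in 20 groups. MOV control 4 was the high library 14 times, sham control 1 8 times and MOV control 5 4 times. In the following, each value in CPM is given with that of the nearest library of its group. 

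MOV control 4 stood above the rest of its group for Csrp3 (1165 against 631), Enah (415 against 192), Pax7 (14.01 against 7.99), Myod1 (61.3 against 35.9), H19 (7967 against 5277), Fst (27.1 against 15.5), Hspa1a (71.3 against 22.2), Vegfa (236 against 157), Mir1a-1 (15.3 against 3.94), Bex1 (71.6 against 31.6), Krt18 (91.6 against 13.0), Tmem158 (75.6 against 29.7), Zfp365 (62.3 against 17.4) and Adamts20 (53.4 against 23.5). MOV control 4 stood below the rest of its group for Dpp4 (0.697 against 3.55) and Odf3l2 (0.0634 against 6.16). Sham control 1 stood above the rest of its group for Mylk2 (1037 against 540.2), Tcap (4262 against 2632), Nos1 (92.7 against 51.7), Atf5 (93.3 against 53.6), Col9a1 (13.4 against 6.97), Plin4 (241 against 121), Odf3l2 (114 against 51.6) and Myh13 (12.8 against 5.27). MOV control 5 stood above the rest of its group for Tcap (2108 against 1409), Cd3e (9.65 against 3.59), Sox10 (3.69 against 1.04) and Gzme (15.2 against 4.25). MOV control 5 stood below the rest of its group for Hspa5 (171 against 248.6). Sham control 4 stood above the rest of its group for S100a8 (18.6 against 4.36), S100a9 (24.5 against 4.85) and Csf3r (27.0 against 7.83). Sham control 5 stood below the rest of its group for Ppargc1b (3.66 against 10.2) and Cdh5 (63.2 against 84.4). Sham control 3 stood above the rest of its group for Chrng (10.7 against 2.96) and Gzme (0.740 against 0.0593). MOV control 2 stood above the rest of its group for Ppargc1a (31.8 against 24.0) and Plin1 (2.34 against 0.606). MOV control 3 stood above the rest of its group for mt-Co3 (188 against 130.3) and Angptl7 (5.41 against 1.78). MOV control 1 stood below the rest of its group for Hadha (267 against 307).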

How the results depend on the processing

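edgeR called 1 gene in the comparison as designed, and most settings moved that count. It called 0 higher and 1 lower, Nos1, with DESeq2's size factors, with upper-quartile factors and with an absolute log2FC over 1. It called 0 and 0 with library totals, 140 higher and 248 lower without a filter, 50 and 113 with at least 10 counts in total, 4 and 32 with all 20 libraries in 1 fit, and 11 and 22 without sham control 1, MOV control 4 and MOV control 5. At an adjusted p under 0.10 it called 258 and 320, and DESeq2 called 392 and 521 and voom 419 and 527. With 1 library left out the edgeR counts ran from 0 to 175 higher and from 0 to 251 lower. They were 175 and 251 without sham control 3, 111 and 207 without MOV control 5, 1 and 5 without MOV control 3, and 0 or 1 otherwise. DESeq2 then called 166 to 646 higher and 258 to 891 lower (365 and 678 without the 3 libraries), and voom 1 to 1838 higher and 8 to 1811 lower (22 and 39 without the 3). In the fit on the libraries with over 1000 CPM of mitochondrial rRNA (MOV control 5 against sham control), and in those with the rRNA level as a term on 20 and on 10 libraries, edgeR called 0 and 0, with 1564, 1011 and 1549 genes at an unadjusted p under 0.05 against 2726. DESeq2 called 91 higher and 124 lower, 0 and 7, and 27 and 55 in these fits. The cause of these changes was not tested.

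With the replicate block edgeR called 0 higher and 1 lower, namely mmu-mir-2134-4 (log2FC -4.37, adjusted p 0.0195), a gene named after its value was seen, while the edgeR adjusted p of Nos1 was 0.103. Equal numbers join different mice, so the block is no pairing within a mouse. For the interaction of surgery and virus edgeR called 0 without and with a block of equal replicate numbers within each surgery (426 and 765 genes at an unadjusted p under 0.05). The labels do not say whether those numbers join the legs of a mouse. DESeq2 called 1, Snord91a, also named after its value was seen. Differences in myosin share kept their sign without a length correction, with 1 library left out and without the 3 libraries, and no rRNA term was fitted to them. In MOV control 5 alone the shares of Myh2 (6.81%), Myh7 (0.0215%), Myh3 (0.175%) and Myh8 (0.115%) lay below the sham control means (9.21, 0.127, 0.292 and 0.142%), the opposite sign. With 1 library left out, the difference in percentage points was between 3.30 and 5.68 for Myh2, 0.148 and 0.273 for Myh7, 0.649 and 1.19 for Myh3 and 0.174 and 0.334 for Myh8, and the exact permutation p crossed 0.05 for these 4 in at least 1 case. Without MOV control 5 that p was 0.0159 for Myh2, 0.0317 for Myh7, 0.00794 for Myh3 and 0.0238 for Myh8. Without sham control 1, MOV control 4 and MOV control 5 the difference was -25.3 points for Myh4 and 18.4 for Myh1, with an exact permutation p of 0.0571 for each.

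Of 4414 values of 192 named genes under other settings, 4216 kept their sign and 198 did not, and 131 genes kept it throughout. Depth limits genes under about 1 CPM, which have few counts in a library. Surgery and the rRNA level nearly coincide in these libraries, so the size of a difference in MOV control 1 to 4 cannot be told apart from that of the rRNA level, and values from MOV control 5 alone have no replicate.

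With library totals in place of TMM, the log2FC took the other sign for Cacna1s 0.092, Casq1 0.098, Trim63 0.041, Wwtr1 0.15, Arntl 0.012, Per2 0.12, Ndufa11 0.038, Ncl 0.10, Chrne 0.14 and Pdgfrb 0.16. With voom, the log2FC took the other sign for Wwtr1 0.091, Dbp -0.12, Rpl11 -0.031, Odc1 -0.0088, Dmd -0.042, Cd68 0.030, Cd3e -0.18, Pdgfrb 0.090 and Mir133a-1 -0.088. With the replicate block, the log2FC took the other sign for Ccn2 -0.094 and Cd3e -0.13. Without a filter, the log2FC took the other sign for Odc1 -0.015. With at least 10 counts in total, the log2FC took the other sign for Odc1 -0.014. Without sham control 1, MOV control 4 and MOV control 5, the log2FC took the other sign for Wwtr1 0.095, Dbp -0.18, Rpl11 -0.13, Polr1b -0.0096, Odc1 -0.11, Hspa5 -0.0027, Dmd -0.040, Mkx 0.069, Cd3e -0.21 and Pdgfrb 0.23. With MOV control 5 as the lone MOV library, the log2FC took the other sign for Myh2 -0.30, Myh7 -2.32, Myh3 -0.44, Myh8 -0.019, Actc1 -0.030, Ankrd2 -0.054, Cacna1s 0.53, Casq1 0.20, Myog -0.20, Igf1 -0.50, Foxo1 -0.047, Ccn2 -0.49, Cpt1b 0.40, Ppargc1b -0.83, Ndufa1 0.27, Ncl 0.00036, Phgdh -0.11, Hspa1a -0.34, Hspa5 -0.47, Chrne 0.53, Mki67 -0.69, Top2a -0.42, Ccnb1 -0.0061, Col11a1 -2.09, Col12a1 -0.71, Fn1 -0.57, Postn -0.31, Tnmd -2.29, H2-Ab1 -0.85, Cd74 -0.92, Isg15 -0.56, Irf7 -1.12, Ccl4 -0.80, Acta2 -0.59, Adipoq 0.15, Dnm3os -0.045 and Meg3 -1.21. With that term on 20 libraries, the log2FC took the other sign for Myh2 -0.57, Myh7 -1.67, Myh3 -0.95, Myh8 -0.31, Actc1 -0.15, Ankrd2 -0.46, Mrln 0.037, Cacna1s 0.18, Myog -0.22, Igf1 -0.29, Igf2 -0.10, Ppargc1b -0.70, Phgdh -0.34, Hspa1a -0.089, Hspa5 -0.15, Chrne 0.26, Mki67 -0.69, Top2a -0.58, Ccnb1 -0.19, Col11a1 -0.027, Fn1 -0.090, Tnmd -0.22, H2-Ab1 -0.91, Cd74 -0.99, B2m -0.11, Isg15 -1.02, Irf7 -1.32, Ccl4 -0.47, Acta2 -0.42 and Meg3 -1.13. With the rRNA level as a term on the 10 libraries, the log2FC took the other sign for Myh2 -0.49, Myh7 -2.84, Casq2 -0.14, Myh3 -1.07, Myh8 -0.55, Actc1 -0.22, Ankrd2 -0.25, Mrln 0.30, Cacna1s 0.57, Casq1 0.25, Itpr1 0.031, Myog -0.68, Igf1 -0.72, Igf2 -0.51, Foxo1 -0.086, Ccn2 -0.72, Cpt1b 0.30, Ppargc1b -1.14, Ndufa1 0.33, Phgdh -0.32, Hspa1a -0.68, Hspa5 -0.50, Chrne 0.59, Mki67 -1.08, Top2a -0.76, Ccnb1 -0.21, Col11a1 -2.45, Col12a1 -1.14, Fn1 -0.89, Postn -0.64, Tnmd -2.71, Cd3d -0.016, H2-Ab1 -1.06, Cd74 -1.18, Isg15 -0.46, Irf7 -1.22, Ccl4 -1.38, Acta2 -0.80, Adipoq 1.26, Cidec 0.47, Dnm3os -0.26 and Meg3 -1.70. With 1 library left out at a time, the sign also changed for 22 genes, whose log2FC ranged over Myh2 -0.048 to 0.21, Cacna1s -0.24 to 0.076, Casq1 -0.12 to 0.016, Trim63 -0.30 to 0.010, Wwtr1 -0.097 to 0.069, Ccn2 -0.18 to 0.29, Per2 -0.28 to 0.14, Dbp -0.13 to 0.21, Cpt1b -0.53 to 0.0097, Rpl11 -0.047 to 0.13, Odc1 -0.072 to 0.12, Hspa5 -0.060 to 0.14, Chrne -0.18 to 0.089, Tnmd -0.040 to 0.69, Cd68 -0.56 to 0.0010, Cd3e -0.45 to 0.35, Csf3r -1.24 to 0.12, Cd74 -0.078 to 0.30, Irf7 -0.048 to 0.34, Ccl2 -0.37 to 0.056, Pdgfrb -0.23 to 0.15 and Acta2 -0.079 to 0.36.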

Other observations

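Several values belong in no comparison. The nuclear RNA Malat1 was between 567 and 777 CPM in the 5 sham control libraries and at 604 in MOV control 5, and between 1414 and 2026 in MOV control 1 to 4. In the mimic libraries it was between 508 and 745 in sham mimic 1 to 4 and at 1185 in sham mimic 5, and between 1309 and 2277 in MOV mimic 1 to 4 and at 982 in MOV mimic 5. Malat1 was thus low in the libraries with many mitochondrial rRNA reads and higher in those with few. What parted this from surgery was mainly MOV control 5 and sham mimic 5. Sham mimic 5, at 1185, lay below each of MOV control 1 to 4 and MOV mimic 1 to 4. The cause of the split in rRNA reads was not tested.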
